A study of Mus musculus with 11 samples.

Results

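The growth regulators described here are 7 genes that set how fast cells enter the cell cycle and leave it, namely the 3 D cyclins (*Ccnd1*, *Ccnd2* and *Ccnd3*), 2 *Myc* genes (*Myc* and *Mycn*) and 2 inhibitors of cyclin-dependent kinases (*Cdkn1b* and *Cdkn1c*). They were taken by gene symbol from the 16755 genes listed in the expression table of the mouse maxillary molar. All 7 had a value above 0 in every library and were tested. The choice was made because these genes lie downstream of Hedgehog (Hh) and Wnt signaling, and it was made with results for *Ccnd1* and *Mycn* in view.

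RNA came from whole maxillary molar tooth germs at embryonic day 14.5 (E14.5), the cap stage, and 6 were joined in each biological replicate, where the source does not say if 6 refers to germs or to embryos. The wild-type (WT) group held 4 libraries of *Cilk1*+/+ embryos. The *Cilk1*-/- group held 4 libraries from embryos without functional *Cilk1*, a kinase of the primary cilium, in which exon 6 had been deleted through the EIIa-Cre transgene, which is active in the early embryo. The third group held 3 libraries of *Cilk1*-/-;PCS1-MRCS1△/△ embryos, called the compound mutant here, in which both chromosome copies also lack 70 kb spanning PCS1 and MRCS1, a stretch with oral enhancers of *Shh*. Both mutant groups share the loss of *Cilk1*, and embryos with the enhancer deletion alone were not analysed here. All mice had the C57BL/6 background, the embryos were littermates of mixed sex, and the whole germ joins epithelium and mesenchyme in one value. In such bulk RNA, fewer cells of a type and less RNA per cell cannot be told apart.

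D cyclins are the sensors of growth signals in G1. They bind CDK4 and CDK6, and these kinases phosphorylate the retinoblastoma protein, which then frees E2F factors to switch on the genes of S phase. MYC and MYCN are transcription factors that pair with MAX and drive ribosome production, metabolism and cell growth. The proteins p27 (from *Cdkn1b*) and p57 (from *Cdkn1c*) bind cyclin-CDK complexes and hold cells in G1, and p27 also rides on cyclin D complexes, so that D cyclins can keep it away from CDK2. In the cap stage tooth germ the enamel knot, a signaling center that makes *Shh*, Wnt and Fgf ligands, stops dividing while the epithelium and mesenchyme around it go on. Hh signaling is known to activate *Ccnd1*, *Ccnd2* and *Mycn* in several tissues, and Wnt signaling is known to activate *Ccnd1* and *Myc*.

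The values are log2(value + 1) of a length-scaled expression value, probably FPKM, and each is called the normalised expression here. Counts were not used, so the depth behind each value is unknown, and errors come from how far the libraries of a group lay apart. Groups were compared with the moderated test of limma over all 16755 genes, with Benjamini-Hochberg adjustment. A gene passed the test at an adjusted p under 0.05, and it was called where the fold change was also at least 1.5. *Cilk1*, listed under its older symbol *Ick*, was at 3.45 to 3.60 in WT, 2.72 to 2.86 in *Cilk1*-/- and 2.60 to 2.67 in the compound mutant, so every mutant library lay below every WT library. Its log2 fold changes were −0.73 (adjusted p = 0.000224) and −0.89 (adjusted p = 6.22e-05). With the replicate number as a block and the compound mutant placed with number 4, the latter did not pass (limma adjusted p = 0.109). Compound mutant library 1 stood apart on the first principal component of all genes, which held 41.6% of the variance, with a score of −48.5 against −6.63 to 11.2 in the other libraries. Compound mutant library 3 had the lowest score on the second component (21.8% of the variance), at −28.9. Deviations of WT and *Cilk1*-/- libraries with the same number ran in opposite directions, so these libraries were not independent. The sample records are numbered in separate runs, and that of the compound mutant also holds the fourth WT and the fourth *Cilk1*-/- library. These runs are called the sets of the labels here. No sample title names a set or a batch, so what the sets stand for is unknown.

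The markers of dental epithelium (8 of 8 genes) and of dental mesenchyme (8 of 8) were present in every group. The summed linear values of the epithelial markers were 845 to 1068 in WT, 894 to 1103 in *Cilk1*-/-, and 592, 738 and 1135 in compound mutant libraries 1 to 3. On the linear scale the summed dental mesenchyme markers ranged from 723 to 791 in WT, 632 to 721 in *Cilk1*-/- and 423 to 743 in the compound mutant. The 10 neuron markers summed to 51.3 to 61.5, 62.7 to 71.4 and 68.5 to 251, with the highest sum in compound mutant library 1. Every mutant library thus had a higher neuron sum than every WT library. The bone and cartilage markers (10 genes) summed to 163 to 259, 179 to 223 and 209 to 576, again with the highest sum in compound mutant library 1. The skeletal muscle markers (10 genes) summed to 12.7 to 37.5, 25.3 to 67.5 and 10.2 to 11.9. The 8 enamel knot markers summed to 41.3 to 71.1, 53.4 to 89.0 and 30.8 to 145, with the highest sum in compound mutant library 3. The 7 erythroid markers summed to 2830 to 3732 in WT and 2895 to 4114 in *Cilk1*-/-, and to 2805, 3649 and 1035 in compound mutant libraries 1 to 3, with 7 of 7 below WT in the group means of the compound mutant (median −0.49). Library 3, which held the highest *Ccnd1* and the lowest *Cdkn1c* value, thus also had the lowest erythroid sum and the highest epithelial sum. The part of these cell types in the results for the growth regulators was not tested.

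*Ccnd1* (chr7:144929931-144939925, minus strand, GRCm38), the D cyclin best known as a target of Wnt and Hh signaling, was the least abundant of the 3 in WT. Its normalised expression was 5.08, 4.92, 5.33 and 4.89 in WT libraries 1 to 4, and 5.26, 5.48, 5.10 and 5.47 in the *Cilk1*-/- libraries. Those of the compound mutant were at 5.66, 5.31 and 5.97. The highest value of the 11 was that of compound mutant library 3, and compound mutant library 2 lay just below the highest WT library, so that the groups overlapped. In the comparison of the compound mutant with WT the log2 fold change was 0.59 (SE 0.159, 95% interval 0.24 to 0.94), a fold of 1.51. It missed the test narrowly (limma adjusted p = 0.0519). In *Cilk1*-/- the log2 fold change was 0.27 (SE 0.147, adjusted p = 0.326), with the interval from −0.05 to 0.60. The compound mutant exceeded *Cilk1*-/- by 0.32 (interval −0.03 to 0.67, adjusted p = 0.254), which was not larger than the spread between libraries. This difference ranged from 0.16 to 0.49 when each library was left out in turn.

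The *Ccnd1* value rested on the settings of the test. Its adjusted p for the compound mutant was 0.0490 after quantile normalization and 0.0474 with 0.1 added in place of 1. It was 0.0100 without compound mutant library 2, with a log2 fold change of 0.76, whereas without library 3 the log2 fold change was 0.43 (adjusted p = 0.0970). The adjusted p was 0.180 with the replicate number as a block, 0.654 with the compound mutant placed in pair 4 and 0.273 with the set of the labels as a term. Within the second set of the labels, the 3 compound mutant libraries exceeded the 1 WT library by 0.76. For *Cilk1*-/- the first set (3 against 3) gave 0.17 and the second set (1 against 1) gave 0.58, and by replicate number *Cilk1*-/- was higher than WT in 3 of 4 pairs.

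*Ccnd2* (chr6:127125162-127152193, minus strand) and *Ccnd3* (chr17:47505051-47599691, plus strand), the other D cyclins, stood at percentile 96.6 or above among all genes by level in each group. *Ccnd2* was at 6.65, 6.65, 6.77 and 6.82 in WT, at 6.66, 6.71, 6.56 and 6.55 in *Cilk1*-/- and at 6.51, 6.79 and 6.43 in the compound mutant. The groups overlapped, and compound mutant library 2 was within the WT range. The log2 fold changes of *Ccnd2* against WT were −0.10 (interval −0.28 to 0.07, adjusted p = 0.491) in *Cilk1*-/- and −0.15 (interval −0.34 to 0.04, adjusted p = 0.278) in the compound mutant. Without compound mutant library 2, the *Ccnd2* value in the compound mutant was −0.26 and passed the test (adjusted p = 0.0280), whereas without library 3 it was −0.08 (adjusted p = 0.587). *Ccnd3* was at 6.36, 6.49, 6.46 and 6.46 in WT, at 6.56, 6.38, 6.47 and 6.41 in *Cilk1*-/- and at 6.44, 6.57 and 6.30 in the compound mutant, with all 3 ranges overlapping. Its log2 fold changes were 0.011 (interval −0.13 to 0.15, adjusted p = 0.950) in *Cilk1*-/- and −0.0048 (interval −0.16 to 0.15, adjusted p = 0.976) in the compound mutant, and both signs turned under some settings.

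**Figure D1:**
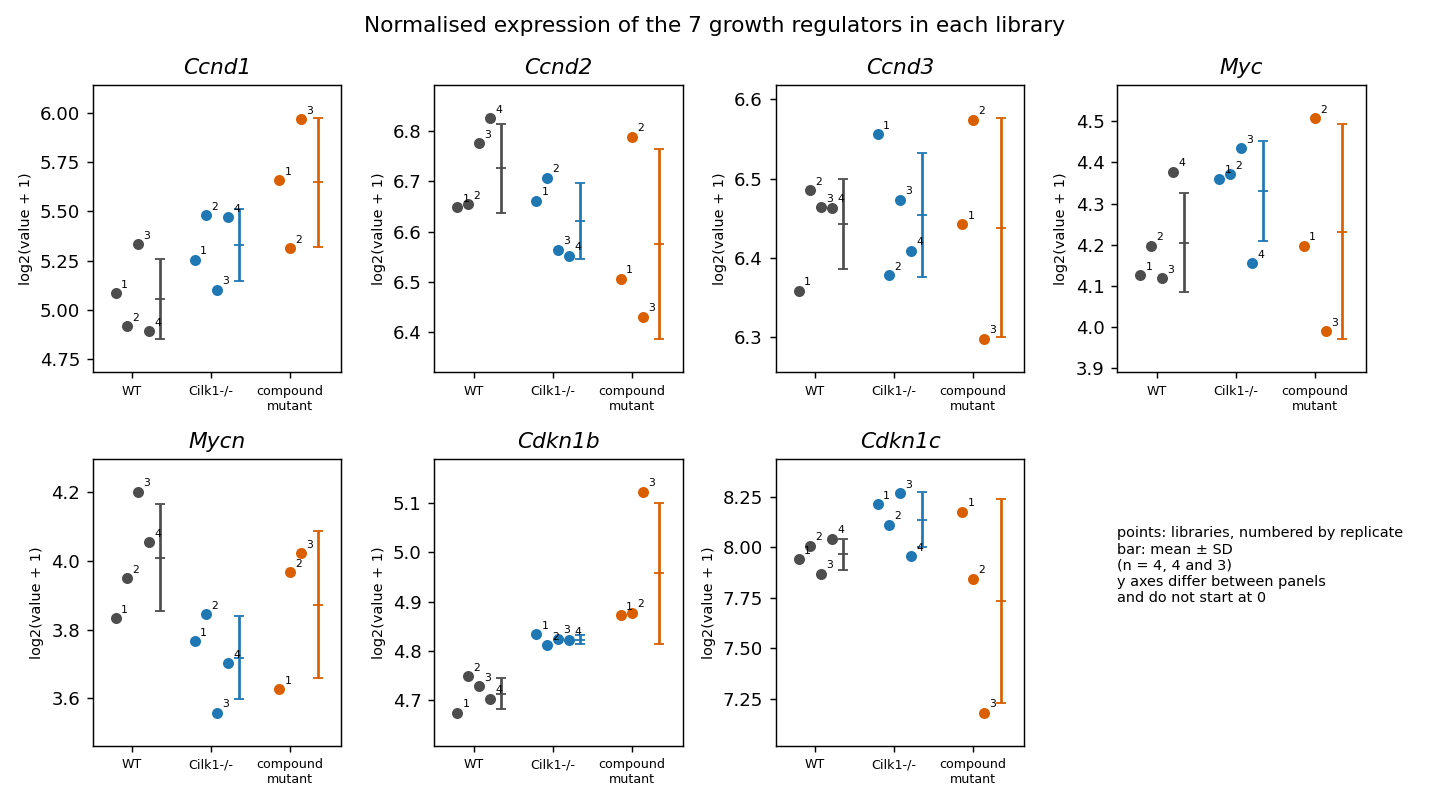
Normalised expression, log2(value + 1), of each of the 7 genes in the 11 libraries, with libraries numbered by replicate and the mean ± SD of each group beside the points. *Cdkn1b* is the one gene whose groups do not overlap, *Ccnd1* is highest in compound mutant library 3 at 5.97, and *Cdkn1c* is lowest in the same library at 7.18.

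As the 3 D cyclins do the same job at CDK4 and CDK6, their linear values were also added up in each library. The sum was 224 ± 9.98 (SD, n = 4) in WT, 224 ± 7.50 (n = 4) in *Cilk1*-/- and 231 ± 10.2 (n = 3) in the compound mutant, so its group means differed by less than 1 SD. The make-up of the sum differed more than the sum. *Ccnd1* gave 14.5% ± 1.89 of it in WT, 17.6% ± 2.08 in *Cilk1*-/- and 21.8% ± 5.73 in the compound mutant. *Ccnd2* gave 46.9% ± 1.55, 43.6% ± 1.22 and 41.0% ± 3.71. All 4 *Cilk1*-/- libraries and all 3 compound mutant libraries had a lower *Ccnd2* share than every WT library. *Ccnd3* gave 38.5% ± 1.55, 38.8% ± 2.32 and 37.2% ± 2.29. Across single libraries the *Ccnd1* share ran from 12.6% in WT library 4 to 27.4% in compound mutant library 3, and compound mutant library 2, at 16.0%, was within the WT range of 12.6% to 16.7%. These shares are a description, and no test was made on them.

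**Figure D2:**
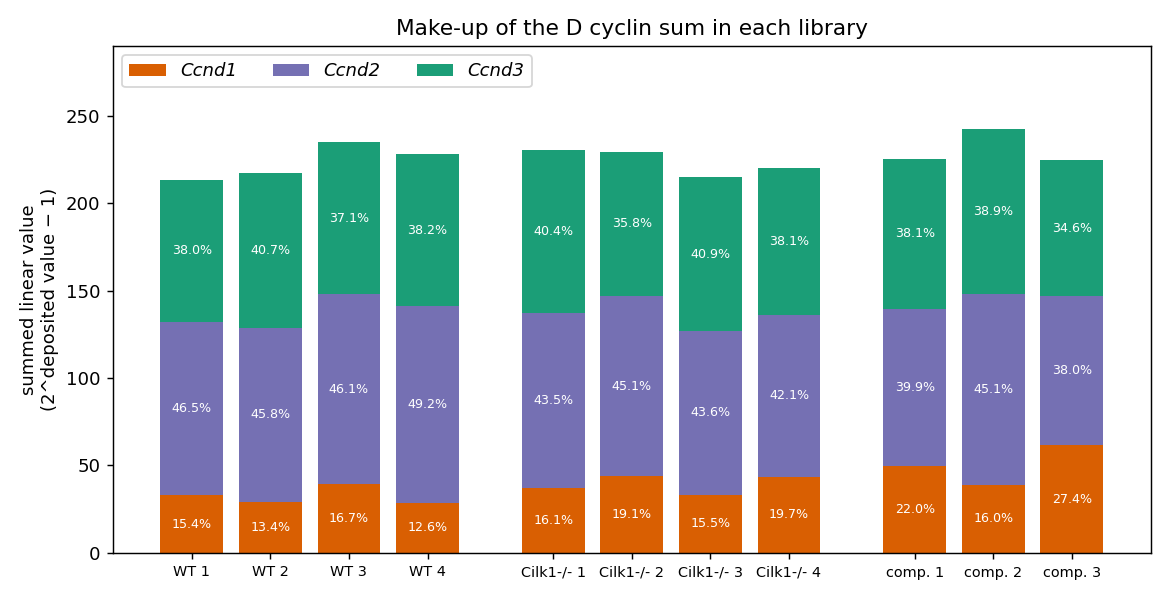
Summed linear value of the 3 D cyclins in each library, stacked by gene, with the share of each gene printed in its segment. The height stays between 213 and 243 in all 11 libraries, while the *Ccnd1* segment grows from 12.6% to 16.7% in WT to as much as 27.4% in compound mutant library 3.

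*Myc* (chr15:61985391-61990374, plus strand), the gene of the c-MYC protein, was at 4.13, 4.20, 4.12 and 4.38 in WT, at 4.36, 4.37, 4.44 and 4.16 in *Cilk1*-/- and at 4.20, 4.51 and 3.99 in the compound mutant. The highest and the lowest value both came from the compound mutant, so the groups overlapped. The log2 fold changes were 0.13 (interval −0.11 to 0.36, adjusted p = 0.549) in *Cilk1*-/- and 0.027 (interval −0.23 to 0.28, adjusted p = 0.906) in the compound mutant.

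*Mycn* (chr12:12936093-12941914, minus strand), which encodes N-MYC and is a known Hh target in other tissues, had a different order of groups. It was at 3.83, 3.95, 4.20 and 4.05 in WT, at 3.77, 3.84, 3.56 and 3.70 in *Cilk1*-/- and at 3.63, 3.97 and 4.02 in the compound mutant. Of the *Cilk1*-/- libraries 3 lay below every WT library, and library 2 lay just above the lowest WT value. The log2 fold change in *Cilk1*-/- was −0.29 (SE 0.103, interval −0.52 to −0.06, unadjusted p = 0.0172), and it missed the limma test (adjusted p = 0.146). *Mycn* was lower than WT in 4 of 4 pairs with the same number, by 0.07 to 0.64 on the log2 scale, and in both sets of the labels (−0.27 and −0.35). It passed in 1 of 22 alternative settings, a fit of the WT and *Cilk1*-/- libraries alone (adjusted p = 0.0470). Like the reported fit, that fit leaves the dependence between same-numbered libraries out of account. The spread of the compound mutant libraries enters the error of the reported fit but not of that one. The adjusted p was 0.296 with the replicate block, 0.474 with the compound mutant in pair 4 and 0.212 with the set term. In the compound mutant the log2 fold change was −0.14 (interval −0.38 to 0.11, adjusted p = 0.449). It was −0.015 without compound mutant library 1 (adjusted p = 0.950). The difference from *Cilk1*-/- was 0.15 (interval −0.09 to 0.40, adjusted p = 0.432), and without each library it ranged from 0.079 to 0.28. On the linear scale, *Mycn* stood at 0.789 to 1.06 times *Myc* in WT, 0.522 to 0.714 times in *Cilk1*-/- and 0.654 to 1.02 times in the compound mutant. Thus every *Cilk1*-/- library had a lower *Mycn* to *Myc* ratio than every WT library, whereas compound mutant library 3 had a ratio within the WT range.

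*Ccnd1* and *Mycn* had fold changes of opposite sign against WT in both mutants, and neither passed the test. The *Mycn* value of the compound mutant rested largely on library 1. The difference of their log2 values, *Ccnd1* minus *Mycn*, was 0.84 to 1.25 in WT, 1.49 to 1.77 in *Cilk1*-/- and 1.35 to 2.03 in the compound mutant. All 7 mutant libraries had a larger difference than all 4 WT libraries. This pair was chosen for its pattern, so that these values are a description with no test.

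The *Mycn* promoter is shown because it held the only matches found among the promoters of these genes. RefSeq windows (GRCm38.p6) were at hand for 3 of the 7 genes, *Cdkn1b*, *Mycn* and *Ccnd3*, the last with 2 start sites. They were searched on both strands for the E2F words TTTGGCGC and TTTCGCGC, the E-box CACGTG bound by MYC with MAX, the TCF/LEF word CTTTGAA and the GLI word TGGGTGGTC. Of 32851 promoters with 250 bases before the start, 0.654% held an E2F word, 6.02% the E-box, 4.46% the TCF/LEF word and 0.225% the GLI word. The stretch chr12:12941915-12942086 (minus strand, 172 bases before the annotated gene) follows, with the E2F words in capitals.
Mycn: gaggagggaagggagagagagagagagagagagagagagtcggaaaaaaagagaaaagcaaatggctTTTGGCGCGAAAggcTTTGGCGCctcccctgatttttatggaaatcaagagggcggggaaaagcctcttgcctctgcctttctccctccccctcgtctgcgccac
It held 3 E2F matches, at 183, 179 and 168 bases before the RefSeq start, the first and second of which overlap. A TCF/LEF word lay 14 bases before the RefSeq start, within the stretch that GENCODE annotates as transcribed. The windows of *Cdkn1b* and *Ccnd3* held none of the words, which says only that these letters are not there, and a match is no evidence of binding.

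*Cdkn1b* (chr6:134920401-134925513, plus strand), the gene of p27, was the one growth regulator that passed the test in any comparison. It was at 4.67, 4.75, 4.73 and 4.70 in WT, at 4.83, 4.81, 4.83 and 4.82 in *Cilk1*-/- and at 4.87, 4.88 and 5.12 in the compound mutant. The 3 groups did not overlap: every *Cilk1*-/- library was above every WT library, and every compound mutant library was above every *Cilk1*-/- library. The changes were small. The compound mutant exceeded WT by 0.24 on the log2 scale (SE 0.0567, interval 0.12 to 0.37, limma adjusted p = 0.0344), a fold of 1.18, which is under the fold needed for a call. The difference was 0.29 without compound mutant library 1 (adjusted p = 0.0306), 0.28 without library 2 (0.0126) and 0.16 without library 3 (0.0269). With the replicate number as a block the adjusted p was 0.155, with the compound mutant in pair 4 it was 0.649, and with the set of the labels as a term it was 0.231. It was 0.148 in a fit of the compound mutant and WT alone and 0.0572 after median centring. Leaving out each library in turn, *Cdkn1b* passed in 3 of 11 fits, with adjusted p between 0.0126 and 0.0959, and the 3 were those without a compound mutant library. Of all 22 alternative settings it no longer passed in 14.

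In *Cilk1*-/- the *Cdkn1b* difference was 0.11 (SE 0.0525, interval −0.0067 to 0.23, adjusted p = 0.269), and it was positive in 4 of 4 pairs with the same number (0.06 to 0.16). It passed in 1 of 22 alternative settings, the fit of WT and *Cilk1*-/- alone (adjusted p = 0.0356), and with the replicate block, the block in pair 4 and the set term the adjusted p was 0.434, 0.604 and 0.348. The compound mutant exceeded *Cilk1*-/- by 0.13 (interval 0.0092 to 0.26, unadjusted p = 0.0377, adjusted p = 0.191). Leaving out each library in turn, this difference ranged from 0.052 to 0.18. The spread within *Cilk1*-/- was the smallest of any group and gene here (SD 0.0091, against 0.032 in WT and 0.14 in the compound mutant). Relative to the D cyclin sum on the linear scale, *Cdkn1b* stood at 11.3% ± 0.488 (SD, n = 4) in WT, 12.2% ± 0.422 in *Cilk1*-/- and 13.1% ± 1.75 in the compound mutant. The 250 bases before its start, chr6:134920151-134920400, are shown as those of the gene that passed the test, all in lower case as no searched word was found.
Cdkn1b: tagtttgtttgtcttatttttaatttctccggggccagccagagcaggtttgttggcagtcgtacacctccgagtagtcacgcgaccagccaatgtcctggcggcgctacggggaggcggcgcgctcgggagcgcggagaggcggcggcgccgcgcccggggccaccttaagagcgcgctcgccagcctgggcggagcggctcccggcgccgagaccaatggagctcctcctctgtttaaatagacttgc

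*Cdkn1c* (chr7:143458339-143461050, minus strand), the gene of p57 and an imprinted gene expressed from the maternal copy, was the most abundant of the 7 and stood at percentile 98.9 to 99.1 among all genes. It was at 7.94, 8.01, 7.87 and 8.04 in WT, at 8.22, 8.11, 8.27 and 7.96 in *Cilk1*-/- and at 8.18, 7.84 and 7.18 in the compound mutant. One library, compound mutant 3, lay far below the rest, and the other compound mutant libraries lay just outside the WT range, one above it and one below. The log2 fold changes were 0.17 (interval −0.20 to 0.55, adjusted p = 0.618) in *Cilk1*-/- and −0.23 (interval −0.64 to 0.18, adjusted p = 0.440) in the compound mutant. Without compound mutant library 3, the latter turned to 0.045. The compound mutant was 0.40 below *Cilk1*-/- (unadjusted p = 0.0515, adjusted p = 0.218, interval −0.81 to 0.0031). Across the fits without 1 library, the log2 fold change between the mutants ranged from −0.62 to −0.13. The linear ratio of *Cdkn1c* to *Cdkn1b* was 9.13 to 10.5 in WT, 9.06 to 11.2 in *Cilk1*-/-, and 10.2, 8.06 and 4.26 in compound mutant libraries 1 to 3.

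Read together, the 7 genes gave no calls. In *Cilk1*-/- against WT, 0 of 7 were called, beside 0.37% of all genes, and 0 of 7 passed the adjusted test in limma, beside 2.44%. At an unadjusted p under 0.05 it was 1 of 7 (*Mycn*), beside 20.7%. In the compound mutant against WT, 0 of 7 were called (1.25% of all genes), 1 of 7 passed the adjusted test (6.58%) and 2 of 7 had an unadjusted p under 0.05 (26.7%), namely *Ccnd1* and *Cdkn1b*. In the compound mutant against *Cilk1*-/-, 0 of 7 were called (0.543%), 0 of 7 passed (3.33%) and 1 of 7 had an unadjusted p under 0.05 (23.2%). One gene of 7, *Cdkn1b*, had groups that did not overlap in each comparison, beside 20.9%, 18% and 17% of all genes, so that this count was not above the background. Above 0 were 5, 3 and 3 of the 7 log2 fold changes, beside 51.2%, 49.4% and 51% of all genes. The median log2 fold changes of the 7 were 0.11, −0.0048 and −0.016, beside 0.0032, −0.0016 and 0.0028 over all genes. The comparisons share libraries and are not independent of each other.

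**Figure D3:**
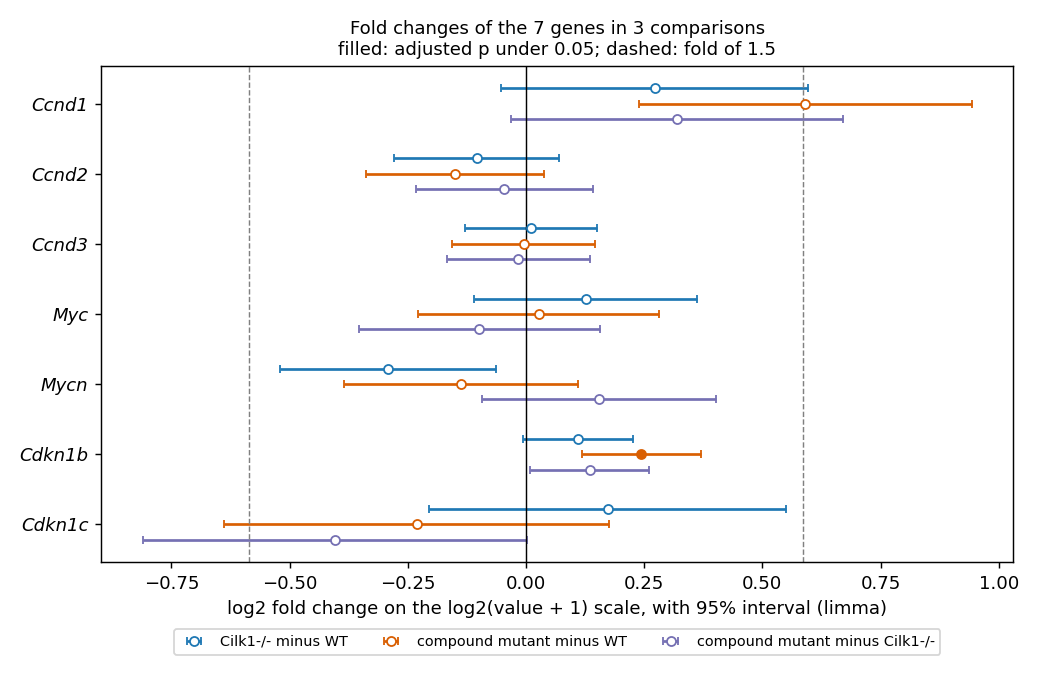
Log2 fold change of each of the 7 genes on the log2(value + 1) scale with its 95% interval from limma, for the 3 comparisons, with dashed lines at a fold of 1.5 and filled points at an adjusted p under 0.05. The one filled point is *Cdkn1b* in the compound mutant against WT, at 0.24, and the largest value is that of *Ccnd1* in the same comparison, at 0.59.

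Correlations over the 11 libraries describe which of the 7 varied alike. They carry no p here, since libraries share a genotype and WT and *Cilk1*-/- values with the same number depend on each other. *Cdkn1b* and *Ccnd1* had the highest Pearson correlation among the 7 (r = 0.828), followed by *Myc* and *Ccnd3* (r = 0.706). The lowest were *Cdkn1b* with *Ccnd2* (r = −0.657), *Cdkn1c* with *Cdkn1b* (r = −0.643) and *Ccnd2* with *Ccnd1* (r = −0.634). *Ccnd1* and *Mycn* were close to 0 (r = −0.061). Among 13028 genes with a mean of at least 1, the gene most like *Ccnd1* was *1700012D14Rik* (r = 0.969), followed by *Pycr1* and *Rnf144b*. *Ccnd2* varied much like *Haus1* (r = 0.963) and *Rad1*, and *Ccnd3* was followed most closely by *Isca1* (r = 0.961), *Sfr1* and *Fnta*. The genes most like *Myc* were *Samd4* (r = 0.960), *Kcne1l* and *Nelfb*, and those most like *Mycn* were *Nmt1* (r = 0.945), *Pdgfb* and *Upf3a*. Among those most like *Cdkn1b* were *Celf5* (r = 0.962) and *Shb*, and the genes most like *Cdkn1c* were *Fmo1* (r = 0.969), *Mir3072* and *Flnc*.

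Some of these values may hold reads of a neighbor. *Cdkn1c* and *Ccnd1* lie 1.47 Mb apart on chromosome 7, and *Ccnd2* and *Cdkn1b* lie 7.77 Mb apart on chromosome 6. Exons of *Ccnd1* overlap those of *LTO1* on the other strand over 1100 bases, and those of *Ccnd3* overlap *Bysl* over 361 bases. Exons of *Cdkn1c* overlap the antisense gene *Gm44732* over 625 bases, and those of *Ccnd2* overlap 2 antisense genes over 372 and 368 bases. Whether the counting used strand is not stated, so reads in these stretches cannot be told apart. *Myc*, *Mycn* and *Cdkn1b* have no such overlap.

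The kinases and pocket proteins that D cyclins act on were next examined from 9 lists of 81 genes of the pathway, all of which were listed. None of the 8 G1 CDKs, E cyclins and their activators passed the adjusted limma test in any comparison. In that list 2 had an unadjusted p under 0.05 in *Cilk1*-/-, 1 in the compound mutant and 2 between the mutants, beside 20.7%, 26.7% and 23.2% of all genes. Its lowest values were those of *Ccne1*, the cyclin of CDK2, in *Cilk1*-/- (−0.28, adjusted p = 0.181) and of *Cdk6*, a partner of D cyclins, in the compound mutant (−0.38, adjusted p = 0.151). None of the 13 pocket proteins and E2F factors passed either in limma, with 4, 3 and 3 at an unadjusted p under 0.05, which is near the shares of all genes. The retinoblastoma gene *Rb1* had values of 0.21 (adjusted p = 0.441) and 0.47 (adjusted p = 0.0896), and *E2f1* had −0.25 in the compound mutant (adjusted p = 0.0971). The medians of both lists were near 0, at −0.05 and −0.06 in *Cilk1*-/- and −0.05 and −0.05 in the compound mutant.

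Among 6 other CDK inhibitors, *Cdkn1a*, which encodes p21, a p53 target and an inhibitor known in the enamel knot, was called higher in the compound mutant. It was at 3.31, 3.98, 4.08 and 3.79 in WT, at 4.31, 3.93, 3.89 and 4.05 in *Cilk1*-/- and at 5.28, 4.50 and 4.93 in the compound mutant. All 3 compound mutant libraries exceeded all other libraries, by a log2 fold change of 1.11 over WT (SE 0.208, limma adjusted p = 0.0176). The adjusted p with the replicate block was 0.125, and against *Cilk1*-/- the difference was 0.86 (adjusted p = 0.0522). Its highest value was in compound mutant library 1, the library with the highest neuron and cartilage sums. *Cdkn3*, a phosphatase that acts on CDK2, fell by 0.36 in the compound mutant (adjusted p = 0.0314, and 0.144 with the block). Of this list 5 of 6 were lower than WT in each mutant, with medians of −0.22 and −0.21, and *Cdkn2a*, the gene of p16 and p19ARF, had the lowest values at −0.64 (adjusted p = 0.262) and −0.51 (adjusted p = 0.335). *Cdkn2a* was near the floor of the scale, at 0 to 1.51 in WT, 0 to 0.73 in *Cilk1*-/- and 0.39 to 0.51 in the compound mutant.

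The partners of *Myc* showed no common direction. Of 10 genes of the *Myc* network, 6 were higher than WT in *Cilk1*-/- and 7 in the compound mutant (5 after median centring), and the medians were 0.11 and 0.06. In the compound mutant *Mxd3*, an antagonist of MYC that is expressed in dividing cells, fell by 0.45 (adjusted p = 0.0329), and *Mxi1*, another antagonist, rose by 0.25 (adjusted p = 0.0377). With the block these were 0.145 and 0.169. None of 12 known *Myc* target genes of growth passed the adjusted limma test in any comparison. Of them 12 of 12 were lower than WT in *Cilk1*-/- and 11 of 12 in the compound mutant (9 of 12 after quantile normalization), with medians of −0.13 and −0.10, and 4, 1 and, between the mutants, 2 had an unadjusted p under 0.05. Beside 20.7%, 26.7% and 23.2% of all genes, the first count was above the background and the last 2 were below it. The *Cilk1*-/- libraries did not overlap with WT for 6 of the 12 target genes, beside 20.9% of all genes. In the compound mutant it was 0 of 12, beside 18%. The lowest fold changes were those of *Bop1*, a ribosome assembly factor, in *Cilk1*-/- (−0.25, adjusted p = 0.0562) and *Cad*, an enzyme of pyrimidine synthesis, in the compound mutant (−0.17, adjusted p = 0.160). None of 10 genes for the turnover of cyclin D, MYC and p27 passed in limma. At an unadjusted p under 0.05 there were 3, 2 and 1, beside 20.7%, 26.7% and 23.2% of all genes. Of these 10 genes, 6 were lower than WT in *Cilk1*-/- (7 after median centring) and 9 in the compound mutant. Their medians were −0.06 and −0.15. *Aurka*, a mitotic kinase that stabilises N-MYC, was at −0.33 in *Cilk1*-/- (adjusted p = 0.0867) and −0.25 in the compound mutant (adjusted p = 0.145). At the other end of the list, *Fbxo4*, an F-box protein for cyclin D1 turnover, was at 0.23 (adjusted p = 0.0599) and 0.13 (adjusted p = 0.196).

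Genes of S phase and mitosis had lower group means than WT in both mutants. All 12 had a negative log2 fold change in each mutant, with medians of −0.27 and −0.23, and the same held after quantile normalization and median centring. In *Cilk1*-/- the libraries did not overlap with WT for 12 of 12 genes, beside 20.9% of all genes, and in the compound mutant for 3 of 12, beside 18%, so that the latter count was near the background. The summed linear value of the list was 726 to 808 in WT and 598 to 680 in *Cilk1*-/-, and in compound mutant libraries 1 to 3 it was 610, 754 and 591. Library 2 was thus within the WT range. In *Cilk1*-/- 1 of 12 passed the adjusted test (2.44% of all genes) and 11 of 12 had an unadjusted p under 0.05 (20.7%). For the compound mutant these counts were 2 and 7 of 12, beside 6.58% and 26.7% of all genes. *Mki67*, the gene of the proliferation marker Ki-67, was at 5.57 to 5.66 in WT, 5.30 to 5.39 in *Cilk1*-/- and 5.05 to 5.24 in the compound mutant. The 3 groups of *Mki67* did not overlap. *Mki67* fell by 0.27 in *Cilk1*-/- (adjusted p = 0.0240, and 0.161 with the block). In the compound mutant its log2 fold change was −0.43 (adjusted p = 0.00328, and 0.0712 with the block). *Top2a*, the topoisomerase of dividing cells, fell by 0.31 in the compound mutant (adjusted p = 0.0485, and 0.185 with the block). The dental mesenchyme markers were lower alongside, with 7 of 8 below WT in *Cilk1*-/- (6 of 8 after quantile normalization) and 8 of 8 in the compound mutant (medians −0.18 and −0.41). None of these markers passed the adjusted limma test, while 2 and 5 had an unadjusted p under 0.05, beside 20.7% and 26.7% of all genes. Their part in these values was not tested.

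**Figure D4:**
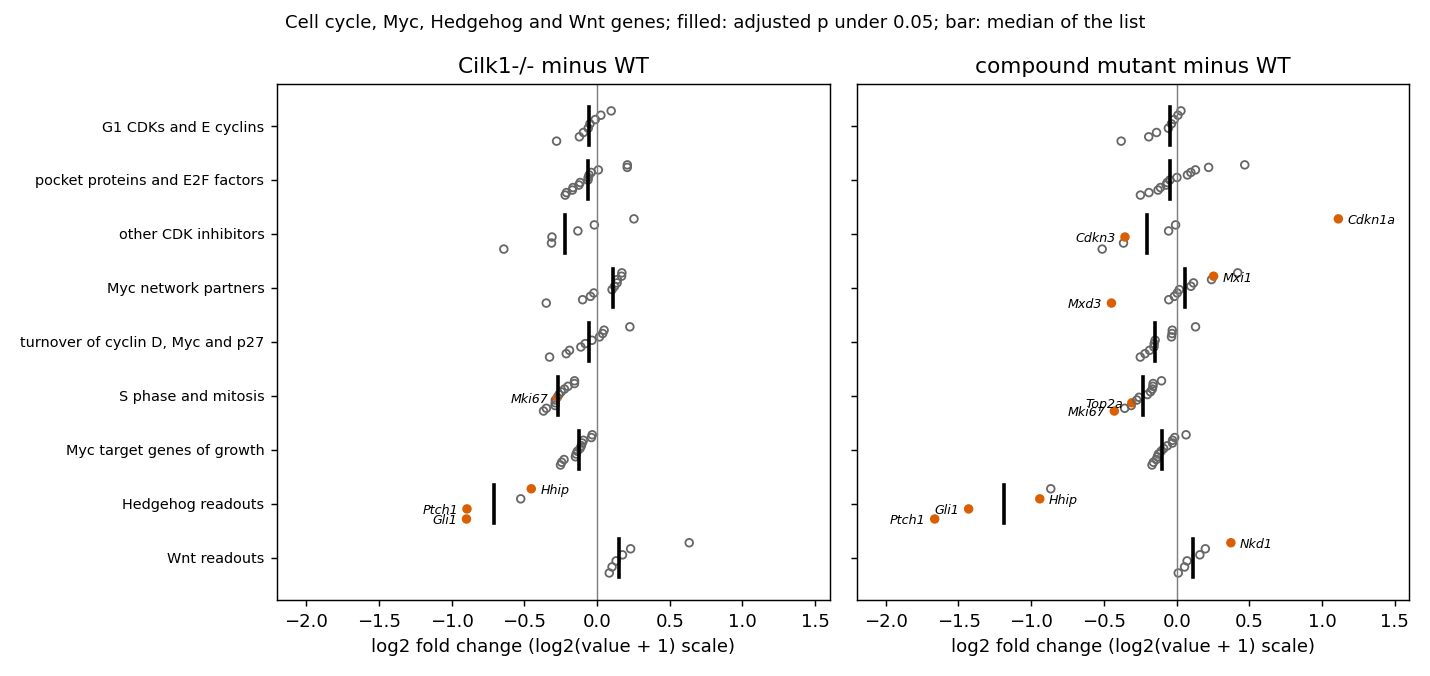
Log2 fold change of each of the 81 pathway genes against WT, in *Cilk1*-/- (left) and the compound mutant (right), with filled and named points at an adjusted p under 0.05 and a bar at the median of each list. The S phase and mitosis genes all lie below 0 in both mutants, Hh readouts lie lowest with *Ptch1* at −1.66 in the compound mutant, and *Cdkn1a* stands alone at 1.11.

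The signals upstream were read from their own targets. Of 4 Hh readouts 3 fell in both mutants: *Ptch1*, the receptor, by 0.89 in *Cilk1*-/- and 1.66 in the compound mutant, *Gli1*, the effector, by 0.90 and 1.43, and *Hhip*, a ligand-binding inhibitor, by 0.45 and 0.94. These 3 of 4 passed the adjusted limma test in each mutant, beside 2.44% and 6.58% of all genes. With the replicate block the 3 changes in *Cilk1*-/- did not pass (adjusted p = 0.149 for *Ptch1*, 0.149 for *Gli1* and 0.186 for *Hhip*), and those in the compound mutant did. With the compound mutant placed in pair 4, as in the sets of the labels, the latter did not pass either (adjusted p = 0.360 for *Ptch1*, 0.470 for *Gli1* and 0.360 for *Hhip*), nor did they with the set term (0.0545, 0.0850 and 0.0533). Beside a *Gli1* value of −0.90 in *Cilk1*-/-, the known Hh targets *Mycn*, *Ccnd2* and *Ccnd1* had values of −0.29, −0.10 and 0.27. Beside −1.43 in the compound mutant they had −0.14, −0.15 and 0.59, and none of these values passed the test. Of the 6 Wnt readouts, 6 of 6 were higher than WT in each mutant (medians 0.15 and 0.12), beside 51.2% and 49.4% of all genes. In the compound mutant it was 5 of 6 after quantile normalization or median centring. In *Cilk1*-/- 0 of 6 passed the limma test (2.44% of all genes), and in the compound mutant 1 of 6 (6.58%). The latter was *Nkd1*, a feedback inhibitor of Wnt signaling (0.37, adjusted p = 0.0240, and 0.127 with the block). *Lgr5*, a Wnt target and receptor of R-spondins, was highest of the list in *Cilk1*-/- at 0.63 (adjusted p = 0.199). Against *Cilk1*-/- the compound mutant differed in 1 of the 81 genes by the adjusted limma test, beside 3.33% of all genes, so this count was not above the background. The gene was *Hhip* (−0.49, adjusted p = 0.0405, and 0.215 with the block).

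**Figure D5:**
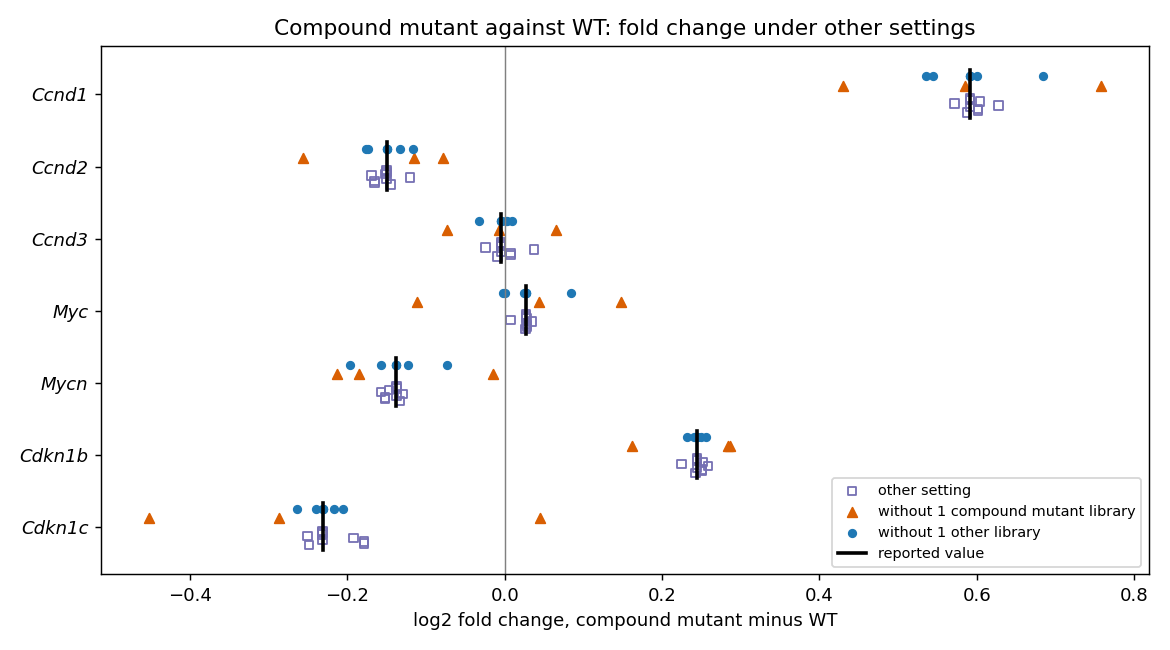
Log2 fold change of the 7 genes in the compound mutant against WT under each alternative setting, with triangles for fits without 1 compound mutant library, circles for fits without 1 other library, squares for other settings and a bar at the reported value. *Ccnd1* and *Cdkn1b* stay above 0 in all of them, while *Ccnd3*, *Myc* and *Cdkn1c* cross 0.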

How the data were processed

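The authors isolated poly-A RNA, sequenced paired-end reads and counted them per gene, and per the labels' processing notes HISAT2 2.0.5, featureCounts 1.5.0-p3 and mm10 were used. The deposited numbers are normalised expression, probably FPKM, on a log2 scale with 1 added. Since they are not counts, the edgeR test named in the study's methods was replaced by limma 3.58.1 in R 4.3.3 (lmFit, eBayes with trend and robust) in 1 fit over 11 libraries and 16755 genes without covariates. The thresholds were those of the study. The members, the 9 pathway lists, the 9 cell type lists and the tests were chosen with earlier results of these data known. Named from the lists were genes that passed the test or, where none did, those with the highest or lowest fold change. A few genes that this rule or the likeness rule would name are not reported here. The fit was tested on simulated data. Libraries of one number were taken as pairs: over all genes their deviations correlated at −0.741, −0.892, −0.848 and −0.792, as after removal of a replicate term, whereas in genes with both libraries of a number at 0, that pair left out, the correlations were 0.561, 0.558, 0.583 and 0.298 (29, 72, 67 and 84 genes). The placement of compound mutant libraries by number was not covered by this check. Nothing states that same-group libraries came from separate litters, so p-values measure the spread between these libraries. Positions come from GENCODE vM21. Alternatives were blocks, a label set term, pairwise fits, other scalings, filters and thresholds, and leaving out each library. Python 3.11.15 with matplotlib 3.10.9 drew the plots.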

Additional observations from a re-analysis of the deposited data

How the results depend on the processing

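For the 7 growth regulators, 462 values were computed over 22 alternative settings, of which 424 kept their direction and side of the threshold, 14 no longer passed, 7 newly passed and 17 changed sign. All 14 were of *Cdkn1b* in the compound mutant against WT, the 1 result that had passed, which kept its side in 8 of 22 settings. The settings without a fold minimum and at an unadjusted p reused the reported fit, so no sign could change there. Passing here means an adjusted p under 0.05, so without a fold minimum no side could change either. At an unadjusted p *Cdkn1b* no longer passed for its fold alone. Depth is unknown, and with 3 or 4 libraries a group the intervals for *Ccnd1* and *Cdkn1c* spanned over 0.6 on the log2 scale. The list genes were put through these settings after their values were seen. The cause of each change below was not tested unless the setting itself shows it.

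With the replicate block the genes called fell from 62, 209 and 91 (*Cilk1*-/- against WT, compound mutant against WT, compound mutant against *Cilk1*-/-) to 4, 26 and 2. With the compound mutant placed in pair 4 they were 4, 0 and 0 (unadjusted p and fold: 110, 261 and 159). With the label set as a term they were 37, 18 and 1. In pairwise fits they were 130, 34 and 1, with 0.1 added 123, 547 and 294, at an unadjusted p 126, 499 and 350, and without a fold minimum 409, 1102 and 558. Without each library they ranged from 15 to 95, 80 to 671 and 36 to 360. Of the growth regulators called (0, 0 and 0), the compound mutant against WT had 1 after quantile normalization, with 0.1 added and at an unadjusted p (*Ccnd1* each time), and 1 without a fold minimum (*Cdkn1b*). Without each library it ranged from 0 to 1 (*Ccnd1* without compound mutant library 2), and the others stayed at 0 to 0. Pathway genes called (2, 4 and 0) became 0 in *Cilk1*-/- with either block or the set term, and 4 without a fold minimum. In the compound mutant against WT they became 0 with the block in pair 4 and with the set term, 1 in the pairwise fit and 10 without a fold minimum. Against *Cilk1*-/- they became 1 after median centring, with 0.1 added and without a fold minimum, and 2 at an unadjusted p. Without each library they ranged from 0 to 3, 3 to 5 and 0 to 2, and the 8 fits of *Cilk1*-/- without a WT or *Cilk1*-/- library gave 0.

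With the replicate block no call of a named gene changed beyond those given with it above. Sign changes concerned *Ccnd3*, *Myc*, *Ccnd2* and, with a reported value of −0.23, *Cdkn1c*. *Ccnd3* in *Cilk1*-/- was −0.0061 after median centring, and −0.023 to 0.036 without each library. *Ccnd3* in the compound mutant was 0.0075 with the block in pair 4 and with the set term, 0.037 after quantile normalization, and −0.073 to 0.065 without each library. Without each library, *Myc* in the compound mutant ranged from −0.11 to 0.15 and *Cdkn1c* from −0.45 to 0.045. Against *Cilk1*-/- the ranges were −0.15 to 0.027 for *Ccnd2*, −0.084 to 0.054 for *Ccnd3* and −0.24 to 0.022 for *Myc*. The *Ccnd1* share of the D cyclin sum moved within 13.8% to 15.2%, 16.9% to 18.3% and 19.0% to 24.7%.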
